A study of Mus musculus with 8 samples.

Results

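The genes described here are 10 regulators of mitochondrial biogenesis and oxidative metabolism: the coactivator genes Ppargc1a and Ppargc1b, the transcription factor genes Nrf1 and Gabpa, the mitochondrial DNA factors Tfam, Tfb2m and Polg, the sirtuin genes Sirt1 and Sirt3, and the mitochondrial carrier gene Ucp2. They were chosen by gene symbol, as an axis proposed for sudachitin in metabolic studies. No value in these livers entered that rule, but earlier results of these data were known when the genes were chosen. Each symbol had 1 row among the 55421 transcripts of the table, and 10 of the 10 passed the filter on low counts. PGC-1 coactivators bind to transcription factors and raise the transcription of genes for respiration, and in liver PGC-1alpha also acts on fatty acid oxidation and gluconeogenesis in fasting. NRF1 and GABP switch on nuclear genes for the respiratory chain and for TFAM, which together with TFB2M and the mitochondrial RNA polymerase starts transcription of mitochondrial DNA. SIRT1 removes acetyl groups from PGC-1alpha in the nucleus, SIRT3 does so from enzymes of the mitochondrial matrix, and both need NAD+.

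RNA was sequenced from the livers of 8 male C57BL/6J mice in 4 groups of 2: control and sudachitin mice killed at zeitgeber time (ZT) 6, in the day, or ZT18, in the night. The mice came to the laboratory at 4 weeks of age and, after 4 weeks of acclimation, all of them, controls included, ate without restriction a high-fat diet with 45% of calories from fat. By gavage on alternate days, between ZT8 and ZT10, the controls received phosphate-buffered saline (a cohort of 11) and the others sudachitin, a polymethoxyflavone from citrus, at 100 mg per kg of body weight (a cohort of 12). Livers were collected at 30 weeks of age. Since the titles speak of mice, replicates count here as different animals, and a p-value measures the spread between mice of this one experiment. Title codes have no start in common between groups, and both mice of a ZT6 group have the same one. If the starts mark cages, cage and group cannot be told apart at ZT6.

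Libraries held 13914116 to 17759630.5 counts in exons. Hepatocyte markers, albumin and apolipoprotein genes among them, summed to 88788 to 108802 CPM (counts scaled to library size with TMM factors), against 202 to 423 CPM for 14 macrophage and Kupffer cell markers. In bulk tissue, fewer cells of a type and less RNA per cell cannot be told apart. Control ZT18 replicate 1 stood apart from the rest: 9 of 11 male-biased liver genes were lowest in it, with a sum of 3840 CPM against 4594 to 10984 in the other 7 libraries. Of the 4 adipocyte markers, Cidea, a gene of lipid droplets, was at 20.5 CPM in that library and at 16.4 in sudachitin ZT18 replicate 1, against at most 0.98 in the others, while Adipoq, Plin1 and Lep were at 0.21 CPM or less everywhere. Leaving out a single liver turned or widely moved many differences of the 10 genes. For most of those discussed below, but not for all, the value without it is given.

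Per length of exon, the 10 genes spanned a wide range, which is shown in the plot of levels per exon length. Sirt3 was the highest of them in 8 of 8 livers, at 20.2 ± 1.68 FPKM (fragments scaled to exon length and library total, mean ± SD over the 8 livers of the 4 groups), and its range did not touch that of the next gene. Tfam (4.56 ± 0.51), Gabpa (3.99 ± 0.52) and Tfb2m (3.97 ± 0.40 FPKM) followed with overlapping ranges. Tfam was above Gabpa in 8 of 8 livers. Gabpa was above Tfb2m in 4 of 8, so the order of Gabpa and Tfb2m was within the spread. Polg, at 2.41 ± 0.19 FPKM, lay below Tfb2m in 8 of 8 livers, and Ucp2, at 2.25 ± 1.23 FPKM, overlapped with it. Nrf1 (1.27 ± 0.17) and Sirt1 (1.10 ± 0.17 FPKM) were not separated from each other. The coactivator genes were the lowest, Ppargc1a at 0.63 ± 0.13 and Ppargc1b at 0.54 ± 0.18 FPKM, and Ppargc1a was above Ppargc1b in 6 of 8 livers. The level of Nrf1 is that of 1 transcript only, which covers 30.0% of the exon bases of its 17 annotated coding transcripts, against 84.6% to 100% for the other 9 genes.

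**Figure D1:**
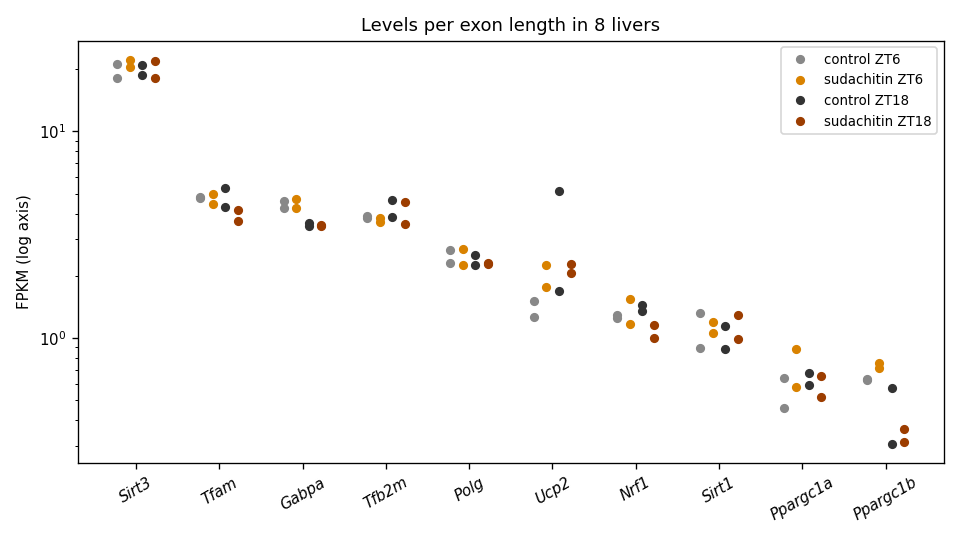
Level of each of the 10 genes per exon length (FPKM, logarithmic axis) in 8 livers, 1 point per liver, coloured by group and ordered by mean. Sirt3 stands above every other gene at 18.1 to 22.2 FPKM, the coactivator genes Ppargc1a and Ppargc1b are lowest, and 1 control ZT18 liver is high for Ucp2.

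GABP, whose DNA-binding subunit is the product of Gabpa, belongs to the ETS family and recognises CCGGAAG, so the stretches before the start sites of these genes were searched for that sequence to show which of them carry the binding letters of another gene in the set. Promoters were taken from RefSeq for GRCm38.p6, whose table held 9 of the 10 genes, and in 7 of these a start lay within 300 bases of the counted transcript's start. In the 250 bases before it, on either strand, CCGGAAG occurred in 4 of the 7 (Gabpa itself, Tfam, Polg and Sirt3) and in 6.91% of 32851 promoters of the same length. TGCGCA, the half-site of NRF1, occurred in 1 of the 7, Tfb2m, and in 6.43% of all promoters. The match before Tfb2m lies past the start of Cnst, an opposite-strand gene that starts 103 bases away, and so also within Cnst. The letters CACGTG, to which the clock factors CLOCK and BMAL1 bind, and AGGTCA, the half-site of nuclear receptors, occurred in 0 of the 7, against 6.02% and 14% of all. CACGTG did occur at 2 places before the RefSeq start of Sirt1, which was left out for lying 42669 bases from the counted start. Ppargc1a, also left out for its start, had no match to any of these motifs. None of these 4 motifs contains another. A match is a stretch of letters and not a measured site. In Tfam and Polg the counted transcript starts before the RefSeq one, and the match lies inside it. For Gabpa, Sirt3 and Tfb2m the 100 bases that hold the match are given 5′ to 3′ along the gene. The matched letters are in capitals (CTTCCGG is CCGGAAG on the other strand). The stretches of Gabpa and Sirt3 end at position -1 from the RefSeq start and that of Tfb2m at position -121.
Gabpa, chr16:84835024-84835123, plus strand: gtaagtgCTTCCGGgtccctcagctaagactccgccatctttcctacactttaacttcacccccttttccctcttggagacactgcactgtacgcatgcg
Sirt3, chr7:140882310-140882409, minus strand: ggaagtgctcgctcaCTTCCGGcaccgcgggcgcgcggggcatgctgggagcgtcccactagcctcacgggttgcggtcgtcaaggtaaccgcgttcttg
Tfb2m, chr1:179546397-179546496, minus strand: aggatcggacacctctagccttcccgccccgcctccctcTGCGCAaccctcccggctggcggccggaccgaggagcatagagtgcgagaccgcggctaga

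The first question was whether sudachitin altered the level of these genes, and in no comparison did any of the 10 pass. With edgeR's quasi-likelihood test and Benjamini-Hochberg adjustment over 14506 tested genes, 0 of 10 passed an adjusted p of 0.05 at ZT6 (0.0% of all tested genes passed), 0 of 10 at ZT18 (0.0138%) and 0 of 10 over both times (0.0207%). At an unadjusted p under 0.05 the counts were also 0, 0 and 0 of 10, against 2.12%, 6.51% and 4.41% of all tested genes, and DESeq2 and limma called 0 of the 10 in each. Over both times the log2 differences of the 10 genes ran from -0.12 for Tfam to 0.18 for Ppargc1a, with a smallest adjusted p of 0.996 (edgeR). With each liver left out in turn, the lowest of them was -0.23, for Nrf1, and the highest 0.47, for Ucp2. The 95% intervals say how large a difference could have gone unseen: for Sirt3 -0.10 to 0.30, for Polg -0.20 to 0.20, for Gabpa -0.14 to 0.21 and for Tfam -0.31 to 0.08 on the log2 scale, but for Ppargc1a -0.25 to 0.60, for Ppargc1b -0.53 to 0.49 and for Ucp2 -0.78 to 0.68. The intervals of the low coactivator genes therefore hold folds up to 1.52 for Ppargc1a, and down to 0.695 and up to 1.40 for Ppargc1b.

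**Figure D2:**
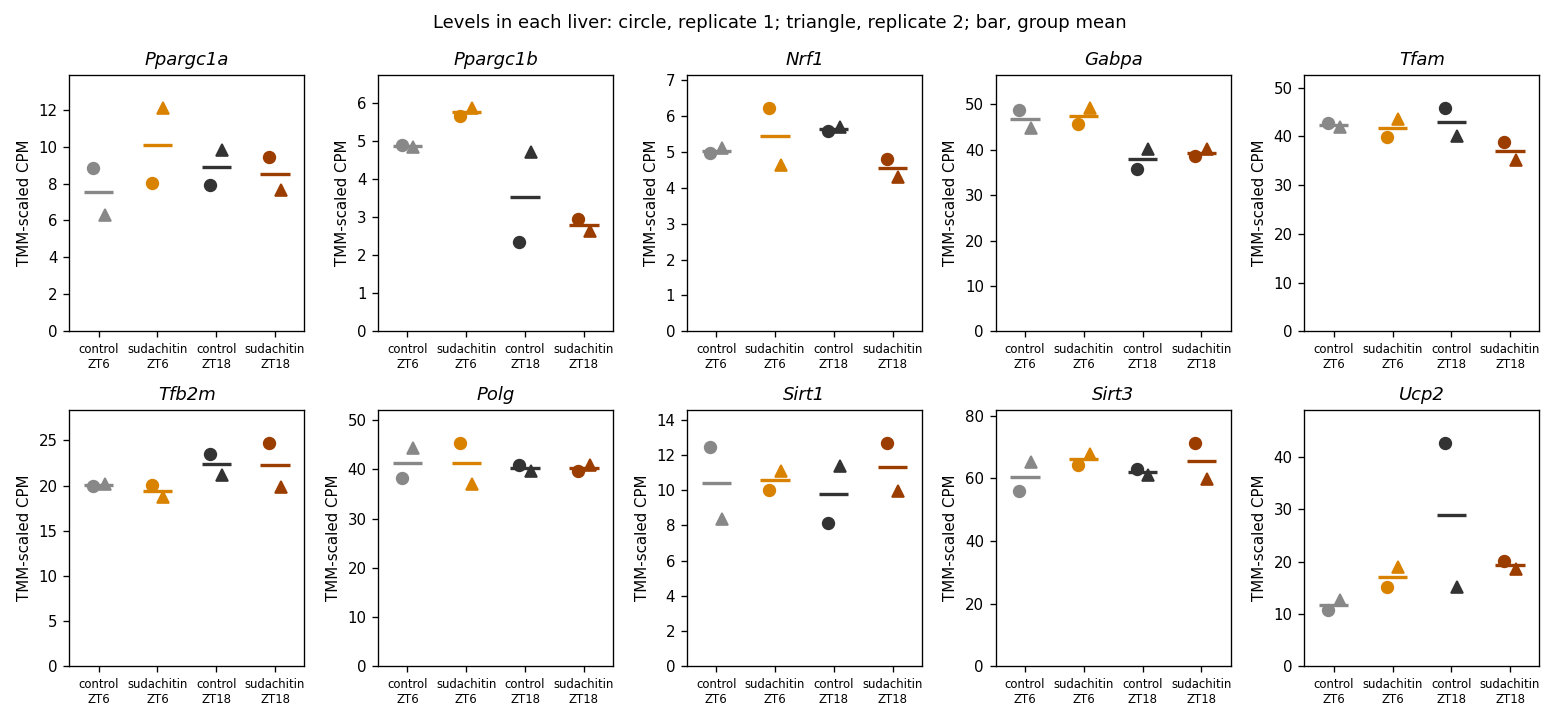
TMM-scaled CPM of the 10 genes in each liver (linear axes from 0, circles replicate 1, triangles replicate 2, bars the means of the 2 mice of a group). Gabpa and Ppargc1b are lower in each of the 4 ZT18 livers than in each of the 4 ZT6 livers, and Ucp2 is highest in control ZT18 replicate 1.

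Ppargc1a encodes PGC-1alpha and lies on chromosome 5 (minus strand, 51454250 to 51553922, GRCm38). It was at 8.85 and 6.27 CPM in control and 8.05 and 12.1 CPM in sudachitin livers at ZT6, and at 7.92 and 9.84 CPM in control and 9.42 and 7.63 CPM in sudachitin livers at ZT18. The 4 groups overlapped in every comparison, with 1 sudachitin ZT6 liver above all others and 1 control ZT6 liver below. At ZT6 the log2 difference of sudachitin from control was 0.41 (SE 0.26, 95% interval -0.18 to 1.01, edgeR adjusted p = 1.0), and without single libraries it ran from 0.10 to 0.68. At ZT18 it was -0.06 (SE 0.26), and -0.20 (SE 0.31) without control ZT18 replicate 1 but 0.10 (SE 0.31) without replicate 2. From ZT6 to ZT18 Ppargc1a differed by 0.23 (SE 0.26) in control and -0.24 (SE 0.26) in sudachitin livers, and the interaction of -0.47 (SE 0.37, edgeR adjusted p = 0.998) did not pass. With single livers left out these ran from -0.01 to 0.49, from -0.52 to 0.07 and from -0.74 to -0.15. Its counts of 95.5 to 177 per library carry a counting error of 7.5% to 10.2% by themselves.

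Ppargc1b, which encodes PGC-1beta, a coactivator that in liver also serves lipid synthesis and secretion, was lower at night than in the day. The gene is on chromosome 18 (minus strand, 61298136 to 61400431). At ZT6 it was at 4.89 and 4.84 CPM in control and 5.65 and 5.86 CPM in sudachitin livers, and at ZT18 at 2.34 and 4.71 CPM in control and 2.96 and 2.64 CPM in sudachitin livers. Each ZT18 liver was below each ZT6 liver, although control ZT18 replicate 2 came close to the lowest ZT6 liver. Over both treatments the log2 difference of ZT18 from ZT6 was -0.76 (SE 0.23, 95% interval -1.27 to -0.25, 0.591-fold), with an edgeR adjusted p of 0.104, so it did not pass. Within sudachitin livers it was -1.04 (SE 0.31, edgeR adjusted p = 0.225), a fold of 0.487, and within control livers -0.48 (SE 0.31, edgeR adjusted p = 0.562). The difference between these, an interaction of -0.56 (SE 0.44, edgeR adjusted p = 0.998), did not pass, and was -0.99 (SE 0.32) without control ZT18 replicate 1 and 0.0059 (SE 0.32) without replicate 2. In control livers the difference rested on 1 mouse: without control ZT18 replicate 1 it was -0.06 (SE 0.25) and without replicate 2 -1.04 (SE 0.27, edgeR adjusted p = 0.101). Over both treatments, leaving out control ZT18 replicate 2 gave -1.04 (SE 0.16, edgeR adjusted p = 0.0203) and leaving out replicate 1 gave -0.64 (SE 0.22, edgeR adjusted p = 0.106). DESeq2 called the difference over both treatments (-0.77, SE 0.26, adjusted p = 0.0465). For sudachitin against control at ZT18, Ppargc1b differed by -0.31, but by -0.74 without control ZT18 replicate 1 and by 0.26 without replicate 2. Over both times the treatment difference was -0.02, and -0.13 and 0.25 without these livers in turn. Ppargc1b had the fewest counts of the 10 genes, 41.5 to 91.5 per library, with a counting error of 15.5% at the lowest.

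Since Ppargc1b was lower at ZT18, without passing, and Ppargc1a overlapped between the times, the balance of the 2 genes is described here. The ratio of Ppargc1a to Ppargc1b in FPKM was 1.02 and 0.73 in control and 0.81 and 1.17 in sudachitin livers at ZT6. At ZT18 it was 1.93 and 1.18 in control and 1.81 and 1.65 in sudachitin livers. The 4 ratios at ZT18 were above the 4 at ZT6, although the lowest of the former, 1.18, and the highest of the latter, 1.17, were nearly equal. This ratio was formed after the values were seen and was not tested.

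Of the transcription factor genes, Gabpa was lower at ZT18 under both treatments and Nrf1 was not. Gabpa (chromosome 16, plus strand, 84835124 to 84863779) was at 48.9 and 44.8 CPM in control and 45.6 and 49.2 CPM in sudachitin livers at ZT6. The ZT18 levels were 35.8 and 40.3 CPM in control and 38.6 and 40.2 CPM in sudachitin livers. The 4 ZT18 livers were again all below the 4 ZT6 livers, with a gap of several CPM between the groups. The log2 difference over both treatments was -0.28 (SE 0.08, 95% interval -0.46 to -0.11, 0.822-fold, edgeR adjusted p = 0.0845), which did not pass. It was -0.30 (SE 0.12) in control and -0.27 (SE 0.12) in sudachitin livers, with edgeR adjusted p-values of 0.347 and 0.400. Limma on log2(FPKM + 1) called it over both treatments (-0.27 on that scale, adjusted p = 0.0484), DESeq2 did not, and without single libraries the difference stayed between -0.32 and -0.26 with edgeR adjusted p-values of 0.0895 to 0.206.

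The count of Gabpa is uncertain, because 123 of its exon bases are shared with Atp5j, a subunit gene of ATP synthase on the opposite strand, and the libraries carry no strand. Atp5j was at 77.6 to 95.2 FPKM, and if its reads covered it evenly, the shared bases would hold 283 to 435 of them, which is 41.6% to 67.8% of the count of Gabpa. Atp5j itself differed between times by 0.12 (SE 0.08, edgeR adjusted p = 0.449) over both treatments, in the other direction from Gabpa. How much of the count of Gabpa comes from Atp5j was not tested. Among the other genes the same estimate gave at most 8.0% for Sirt3 (with Psmd13, 152 bases), 3.1% for Polg (with Fanci, 665 bases) and 0.22% for Ucp2 (with Dnajb13, 305 bases).

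Nrf1 (chromosome 6, plus strand, 30048031 to 30144860) was at 4.97 and 5.10 CPM in control and 6.21 and 4.64 CPM in sudachitin livers at ZT6. At ZT18 it was at 5.58 and 5.69 CPM in control livers and at 4.80 and 4.29 CPM in sudachitin livers, so both sudachitin livers lay below both controls. The log2 difference at ZT18 was -0.31 (SE 0.21, 95% interval -0.80 to 0.18, edgeR adjusted p = 0.851), which is within the error. In control livers Nrf1 was higher at ZT18 without overlap (0.16, SE 0.22), in sudachitin livers the groups overlapped (-0.26, SE 0.22), and the interaction was -0.42 (SE 0.30, edgeR adjusted p = 0.998). Without single livers the last 2 ran from -0.46 to -0.04 and from -0.62 to -0.20.

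Tfam, Tfb2m and Polg, the genes that act on mitochondrial DNA, differed little between livers, with a highest level over the lowest of 1.30, 1.32 and 1.22. Tfam (chromosome 10, minus strand, 71225464 to 71238280), which coats mitochondrial DNA, was at 42.7 and 41.9 CPM in control and 40.0 and 43.6 CPM in sudachitin livers at ZT6, and at 45.8 and 40.0 CPM in control and 38.8 and 35.1 CPM in sudachitin livers at ZT18. The sudachitin ZT18 livers were the lowest of the 8. The log2 difference of sudachitin from control at ZT18 was -0.22 (SE 0.12, 95% interval -0.49 to 0.06), with an edgeR adjusted p of 0.813, the smallest of the 10 genes in that comparison. Without control ZT18 replicate 1 it was -0.11 (SE 0.14), and without replicate 2 -0.31 (SE 0.14). From ZT6 to ZT18 Tfam differed by 0.02 (SE 0.12) in control and by -0.18 (SE 0.12) in sudachitin livers, and the interaction of -0.20 (SE 0.17) did not pass either (edgeR adjusted p = 0.998). Without control ZT18 replicate 1 the difference in control livers was -0.09 (SE 0.14) and the interaction -0.10 (SE 0.18), and without replicate 2 they were 0.12 (SE 0.14) and -0.30 (SE 0.18).

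Tfb2m (chromosome 1, minus strand, 179528055 to 179546267), which opens the promoter for the mitochondrial RNA polymerase, was at 19.9 and 20.2 CPM in control and 20.0 and 18.8 CPM in sudachitin livers at ZT6. Its ZT18 levels were 23.5 and 21.1 CPM in control and 24.7 and 19.8 CPM in sudachitin livers. Only sudachitin ZT18 replicate 2 reached into the range of the ZT6 livers, and the log2 difference over both treatments was 0.18 (SE 0.09, 95% interval -0.03 to 0.39, edgeR adjusted p = 0.315, 0.11 to 0.23 without single livers). Polg (chromosome 7, minus strand, 79446231 to 79466362), the catalytic subunit of the polymerase that copies mitochondrial DNA, was at 37.1 to 45.4 CPM at ZT6 and at 39.7 to 41.0 CPM at ZT18. Its groups overlapped in all 6 comparisons between groups, and its interval for ZT18 against ZT6 over both treatments was -0.23 to 0.17 on the log2 scale.

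Of the sirtuin genes, Sirt1 (chromosome 10, minus strand, 63319005 to 63381704) was at 12.4 and 8.37 CPM in control and 10.0 and 11.1 CPM in sudachitin livers at ZT6. At night it was at 8.15 and 11.4 CPM in control and 12.7 and 9.98 CPM in sudachitin livers. The mice of each control group differed more from each other than the group means did, and no comparison separated the groups. Over both times its log2 difference of sudachitin from control was 0.12 (SE 0.17, 95% interval -0.25 to 0.49), and without single livers it ran from 0.02, without control ZT18 replicate 1, to 0.26. At ZT18 it was 0.22, but -0.0043 without control ZT18 replicate 1 and 0.47 without replicate 2. From ZT6 to ZT18 in control livers Sirt1 differed by -0.09, and by 0.12 and -0.34 without these livers in turn. Sirt3 (chromosome 7, minus strand, 140863670 to 140882309) was at 56.1 and 65.1 CPM in control and 64.2 and 67.9 CPM in sudachitin livers at ZT6, and at 62.9 and 61.2 CPM in control and 71.3 and 59.9 CPM in sudachitin livers at ZT18. Its difference over both times was 0.10 (SE 0.09, 95% interval -0.10 to 0.30, edgeR adjusted p = 0.996, 0.06 to 0.16 without single livers), and the groups overlapped at each time.

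Ucp2, a carrier of the mitochondrial inner membrane that is expressed by Kupffer cells and, in fatty liver, by hepatocytes, had the widest spread of the 10 genes. It lies on chromosome 7 (plus strand, 100493337 to 100502020). At ZT6 it was at 10.7 and 12.7 CPM in control and 15.1 and 19.0 CPM in sudachitin livers. At ZT18 it was at 42.7 and 15.1 CPM in control and 20.1 and 18.6 CPM in sudachitin livers. The 42.7 CPM of control ZT18 replicate 1 was above every other liver, and the remaining 7 ran from 10.7 to 20.1 CPM. At ZT6 both sudachitin livers were above both controls. That difference was 0.53 on the log2 scale (SE 0.40, 95% interval -0.38 to 1.45, edgeR adjusted p = 1.0). In control livers the difference of ZT18 from ZT6 was 1.31 (SE 0.40, edgeR adjusted p = 0.237), and without control ZT18 replicate 1 it was 0.35 (SE 0.20). Over both treatments it was 0.74 (SE 0.33, 95% interval 0.01 to 1.47, edgeR adjusted p = 0.238), and 0.24 without that liver.

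The treatment difference of Ucp2 at ZT18 turned on the same liver. With all livers it was -0.58 (SE 0.38, edgeR adjusted p = 0.842), without control ZT18 replicate 1 it was 0.36 (SE 0.20, edgeR adjusted p = 1.0), and without replicate 2 it was -1.14 (SE 0.17, edgeR adjusted p = 0.0212). The interaction was -1.12 (SE 0.56, edgeR adjusted p = 0.998), and -0.18 (SE 0.25) without control ZT18 replicate 1. Without that liver the difference over both times was 0.47 (SE 0.12, edgeR adjusted p = 0.943), against -0.05 (SE 0.32) with all livers and -0.22 (SE 0.30) without replicate 2. The 14 macrophage and Kupffer cell markers summed to 217 and 247 CPM in control and 288 and 423 CPM in sudachitin livers at ZT6, and to 332 and 202 CPM in control and 288 and 263 CPM in sudachitin livers at ZT18. In 4 of 4 groups the mouse with the higher marker sum was also the mouse with more Ucp2, but across groups the orders differed: the highest sum was in sudachitin ZT6 replicate 2 and the highest Ucp2 in control ZT18 replicate 1. With 2 mice per group this agreement is a description, and how many other genes show it was not counted. Single markers did not all follow the sum. Clec4f (42.8 against 50.3 CPM), Cd5l, Timd4 and Cd163 were lower in sudachitin ZT18 replicate 1, which had more Ucp2, and the other markers higher. In control livers C1qa and Cd68 at ZT6 and Timd4 at ZT18 also went against the sum. The part of these markers, of the male-biased genes and of Cidea in the differences of Ucp2 was not tested.

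**Figure D3:**
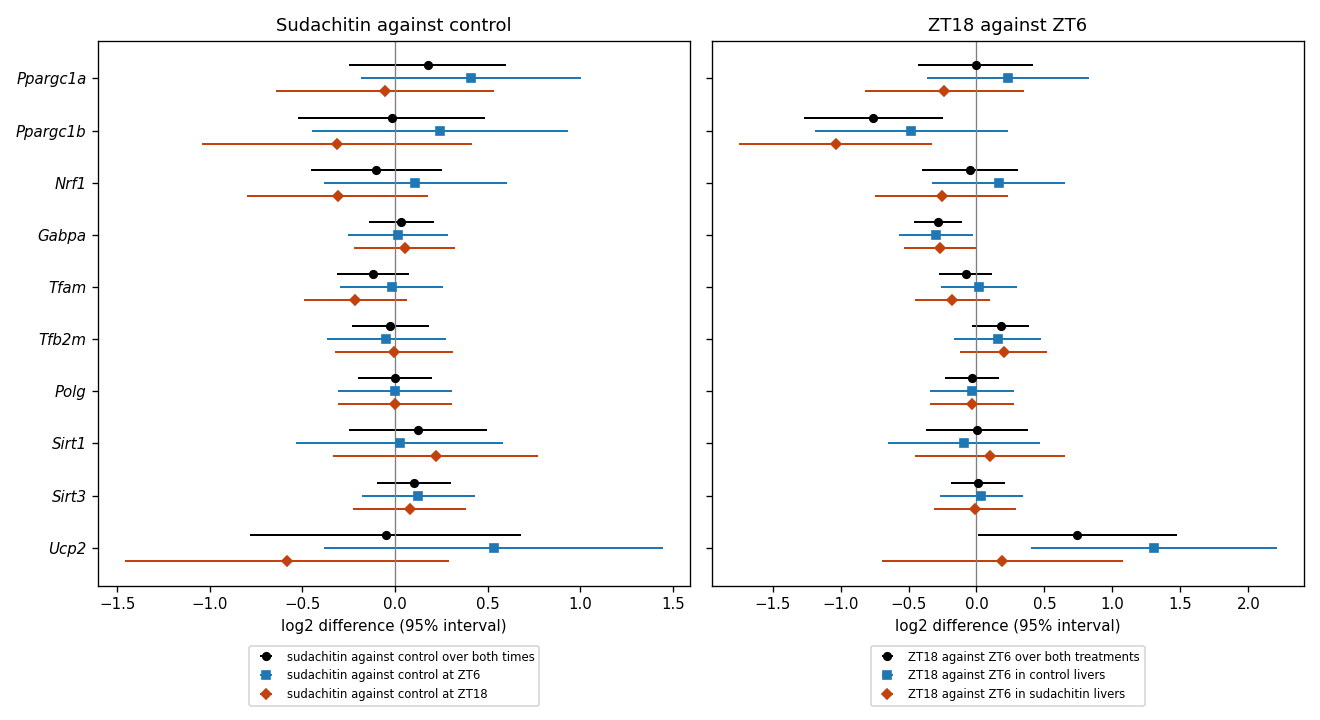
Log2 differences of the 10 genes with 95% intervals (edgeR, 8 livers, 2 per group) for sudachitin against control (left) and ZT18 against ZT6 (right), over both levels of the other factor and at each level. On the left every interval holds 0, and on the right those of Gabpa, Ppargc1b and Ucp2 over both treatments lie to 1 side of it. For Ucp2 the difference is 0.74 with all livers and 0.24 without control ZT18 replicate 1.

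Between day and night, too, none of the 10 genes passed. In control livers 0 of 10 passed the edgeR test (0.524% of all tested genes did) and 2 of 10, Gabpa and Ucp2, had an unadjusted p under 0.05 (12.9% of all). DESeq2 called 1 of the 10, Ucp2 (1.30, SE 0.35, adjusted p = 0.0137), and limma 0. In sudachitin livers 0 of 10 passed (0.186% of all) and 1 of 10, Ppargc1b, had an unadjusted p under 0.05 (12.6%), with 0 called by DESeq2 and by limma. Over both treatments 0 of 10 passed (3.68% of all) and 3 of 10, Gabpa, Ppargc1b and Ucp2, had an unadjusted p under 0.05 (20.4%), while DESeq2 called Ppargc1b and limma on log2(FPKM + 1) called Gabpa. For the interaction 0 of 10 passed (0.0% of all), 0 of 10 had an unadjusted p under 0.05 (3.78%), and DESeq2 and limma called 0.

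Counts of genes whose livers do not overlap are a description. At ZT6, 2 of 10, Ppargc1b and Ucp2, were higher in both sudachitin livers than in both controls (15.4% of all tested genes), and 0 were lower (16.3%). At ZT18, 2 of 10, Nrf1 and Tfam, were lower in both sudachitin livers (15.5%), and 0 were higher (15.3%). With 4 livers against 4, treatment separated 0 of 10 genes in either direction (1.83%). Time separated 2 of 10, Ppargc1b and Gabpa, both lower at ZT18 (7.02%), and 0 higher (5.99%). In control livers 3 of 10 were higher at ZT18 (21.3%) and 2 lower (21.1%), and in sudachitin livers 0 were higher (23.5%) and 3 lower, Tfam beside Ppargc1b and Gabpa (22.3%).

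Over the 8 livers, the pair of these genes with the most similar profiles was Ppargc1b and Gabpa, with a Pearson r of 0.87 between their log2 CPM. Of the 45 pairs, 27 had an r above 0, the median was 0.04, and Gabpa with Tfb2m had the lowest, -0.81. Ppargc1a and Sirt1 had an r of 0.68. The libraries share their depth and groups, so these values are a description. The genes named next as most alike are the highest of all those compared over only 8 livers, so high values can arise by selection alone. Among 8928 other genes with a mean of at least 5 CPM, Mob3b (0.99), Adcy9 (0.98) and Rnf152 (0.98) were most like Gabpa. Among 8929 such genes, Mfsd14b (0.96), Aagab (0.95) and Hnrnpd (0.94) were most like Ppargc1b. For Ppargc1a these were Rpl37 (0.93), Zbtb41 (0.93) and Zc3h12c (0.92), for Tfam Dctn6 (0.99), Abca3 (0.98) and Atp6v1h (0.97), and for Nrf1 Mrpl58 (0.95), Oaz2 (0.94) and Tmem222 (0.92). Sirt1 was most like Dnajc7 (0.95), Fam53a (0.94) and Tfap4 (0.94), Sirt3 most like Rarres2 (0.97), Vmp1 (0.96) and Tm2d3 (0.95), Polg most like Tst (0.94), Tle1 (0.92) and Tmem238 (0.91), and Tfb2m most like Gpat4 (0.95), Syngr2 (0.94) and Eif1 (0.94). For Ucp2 they were Bnip2 (0.97), Blvrb (0.94) and Kmt5a (0.94), and without control ZT18 replicate 1 these values were 0.99, 0.77 and 0.80.

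The wider pathway was followed in 11 lists of genes around the 10, and under sudachitin no gene of any list passed at ZT6, at ZT18 or over both times, by edgeR. The lists hold other factors of mitochondrial DNA (21 tested genes), partners and upstream regulators of PGC-1 (31), the other sirtuins (5), other carriers related to UCP2 (5), nuclear subunits of the respiratory chain and ATP synthase (76), mitochondrially encoded mRNAs (13), mitochondrial ribosomal proteins (78), protein import and quality control (18), fusion, fission and mitophagy (15), hepatic targets of PGC-1alpha (20) and matrix substrates of SIRT3 (9). Their unadjusted p was under 0.05 in at most 2 genes of any list at ZT6, 2 of 78 mitochondrial ribosomal proteins (2.12% of all tested genes). At ZT18 the largest counts were 5 of 20 hepatic targets of PGC-1alpha and 4 of 31 partners (6.51% of all). Over both times the largest was 4 of 31 partners (4.41% of all). The interaction passed for none of their genes. At most 2 of a list had an unadjusted p under 0.05 (2 of 31 partners and 2 of 20 hepatic targets, 3.78% of all tested genes).

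Between ZT6 and ZT18, 6 genes of these lists passed over both treatments, all higher at ZT18, and 0 were lower, where 3.68% of all tested genes passed in either direction. Of the 20 hepatic targets of PGC-1alpha 4 rose and 16 did not pass, with 18 of 20 differences above 0 and a median of 0.33, against 52.7% above 0 and a median of 0.02 over all tested genes. Without single livers 14 to 19 of 20 were above 0, with medians of 0.30 to 0.36. Cyp7a1, the rate-limiting enzyme of bile acid synthesis, was at 33.2, 13.99, 32.8 and 21.7 CPM at ZT6 (control replicates 1 and 2, then sudachitin) and at 49.6, 106, 142 and 120 CPM at ZT18, and rose by 2.0 (SE 0.32, edgeR adjusted p = 0.0124). Pdk4, a kinase that shuts off pyruvate oxidation, was at 14.2, 14.8, 10.6 and 13.2 CPM at ZT6 and 53.2, 25.7, 21.3 and 26.6 CPM at ZT18, and rose by 1.23 (SE 0.22, edgeR adjusted p = 0.0190). Neither gene overlapped between the times. G6pc, the last enzyme of glucose release, rose by 1.11 (SE 0.24, edgeR adjusted p = 0.0374), from 136 to 257 CPM in the ZT6 livers to 290 to 520 CPM in the ZT18 livers. Cycs, which encodes cytochrome c and is in the respiratory chain list too, rose by 0.34 (SE 0.07, edgeR adjusted p = 0.0400), from 84.2 to 92.5 to 105 to 123 CPM. For Ppargc1a itself the 95% interval of the same difference was -0.43 to 0.42 on the log2 scale.

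In the other lists, Ppard, a nuclear receptor for fatty acids among the partners of PGC-1, was at 6.84, 8.24, 9.04 and 7.30 CPM at ZT6 and 19.7, 21.7, 9.84 and 15.6 CPM at ZT18. It rose by 1.05 over both treatments (SE 0.21, edgeR adjusted p = 0.0298) and by 1.45 in control livers (SE 0.23, edgeR adjusted p = 0.0430), the 1 of 31 partners to pass, against 3.68% and 0.524% of all tested genes. Bnip3, a mitophagy receptor of the outer membrane, rose by 0.62 (SE 0.13, edgeR adjusted p = 0.0412), from 157 to 179 CPM at ZT6 to 197 to 308 CPM at ZT18, and was 1 of 15 in its list, against the same 3.68%. Most of these calls depended on single livers, with the directions the same. With each of the 8 left out in turn, Cyp7a1 lost its call without sudachitin ZT6 replicate 1 (adjusted p = 0.0520) and Pdk4 without control ZT6 replicate 1 (0.0778) or 2 (0.0740) or sudachitin ZT6 replicate 1 (0.0695). Ppard over both treatments kept it in 3 of 8 (without sudachitin ZT6 replicate 1, control ZT18 replicate 1 or sudachitin ZT18 replicate 1, largest adjusted p of the others 0.102), and in control livers in 3 of 8, without control ZT18 replicate 2 or either sudachitin ZT18 replicate (largest of the others 0.325). G6pc and Bnip3 kept it in 2 of 8, without control ZT18 replicate 1 or sudachitin ZT18 replicate 2 (largest of the others 0.123 and 0.135), and Cycs in 1 of 8, without control ZT18 replicate 1 (0.146).

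The nuclear subunits of the respiratory chain and ATP synthase, targets of the NRF1 and GABP pathway, showed small differences. In control livers 0 of 76 passed between ZT6 and ZT18, but 75 of 76 log2 differences were above 0, with a median of 0.18, against 52.8% above 0 and a median of 0.02 over all tested genes. Without single livers it was 65 to 76 of 76, with medians from 0.13 (without control ZT18 replicate 1) to 0.25 (without replicate 2). In sudachitin livers 53 of 76 were above 0 (50.9% of all tested genes) with a median of 0.05, and that direction rested on single mice: without sudachitin ZT18 replicate 1 it was 32 of 76 with a median of -0.03, and without replicate 2 it was 68 of 76 with 0.12. Over both treatments 1 of 76, Cycs, passed, against 3.68% of all tested genes. At ZT18 4 of 76 were above 0 in sudachitin against control livers (49.6% of all tested genes), with a median of -0.10. It was 19 of 76 with -0.07 without control ZT18 replicate 1, 11 of 76 with -0.15 without replicate 2, 2 of 76 with -0.19 without sudachitin ZT18 replicate 1 and 25 of 76 with -0.03 without replicate 2. At ZT6 it was 53 of 76 (48.8% of all tested genes), with a median of 0.05, and 39 of 76 with a median of 0.0036 without control ZT6 replicate 1 or 55 of 76 with 0.09 without replicate 2. The comparisons at ZT18 and within control livers share the control ZT18 livers.

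**Figure D4:**
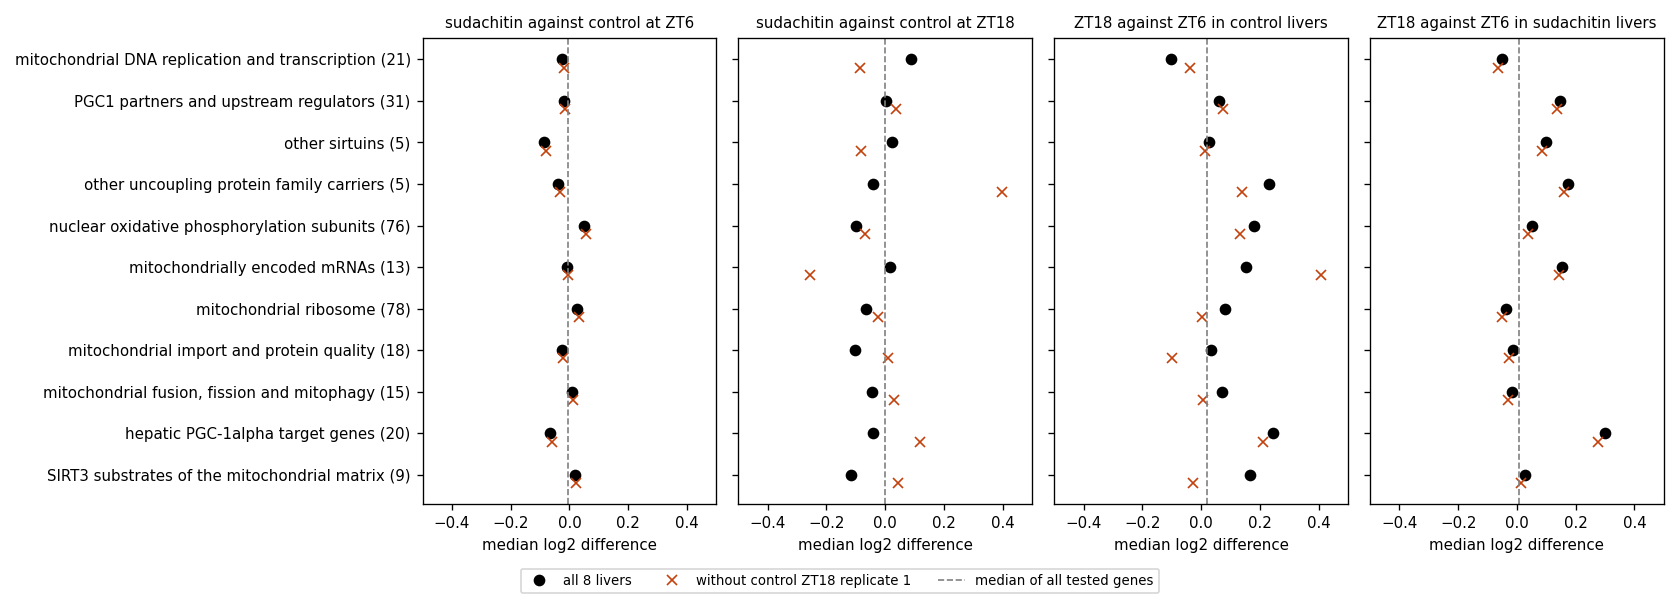
Median log2 difference of each of 11 gene lists (number of tested genes in brackets) in 4 comparisons, with all 8 livers (circles) and without control ZT18 replicate 1 (crosses); dashed lines are medians over all tested genes. The medians are within 0.1 of 0 at ZT6, and the mitochondrially encoded mRNAs move with the left-out liver, from 0.15 to 0.41 for time in control livers.

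The 13 mitochondrially encoded mRNAs, which TFAM and TFB2M serve, did not pass in any comparison. Their median difference of ZT18 from ZT6 was 0.15 in control and 0.15 in sudachitin livers, and neither direction held with each liver left out. In control livers it was 0.41, with 12 of 13 above 0, without control ZT18 replicate 1 and -0.17, with 2 of 13 above 0, without replicate 2. In sudachitin livers it was -0.08 without sudachitin ZT6 replicate 1 and -0.05 without sudachitin ZT18 replicate 2, with 6 of 13 above 0 in each, and 0.14 to 0.16 without any other liver. The smallest p were those of mt-Nd6, at -0.43 (SE 0.19, edgeR adjusted p = 0.772) for sudachitin at ZT18, and of mt-Nd1, at 0.26 (SE 0.13, edgeR adjusted p = 0.282) for time over both treatments. Of the 21 other factors of mitochondrial DNA 0 passed, with 4 of 21 above 0 from ZT6 to ZT18 over both treatments (52.7% of all tested genes) and a median of -0.06. The smallest p in that list were those of Primpol, a primase that restarts stalled replication, at -0.47 (SE 0.13, edgeR adjusted p = 0.0932), and Mterf4, which takes part in assembly of the mitochondrial ribosome, at -0.33 (SE 0.10, edgeR adjusted p = 0.107). Of the other sirtuins, Sirt5, the matrix desuccinylase, was at -0.25 (SE 0.10, edgeR adjusted p = 0.996) for sudachitin over both times, and Sirt7, a nucleolar sirtuin, at -0.39 (SE 0.18, edgeR adjusted p = 0.417) for time in control livers. Among carriers related to UCP2, the ADP/ATP carrier gene Slc25a5 was at 0.30 (SE 0.11, edgeR adjusted p = 0.15) for time over both treatments and Slc25a4 at -0.65 (SE 0.23, edgeR adjusted p = 0.721) for sudachitin at ZT18.

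In the remaining lists 0 of 78 mitochondrial ribosomal proteins, 0 of 18 import and quality control genes and 0 of 9 SIRT3 substrates passed in any comparison by edgeR. Hspe1, the co-chaperonin of the matrix, was at 0.33 on the log2 scale (SE 0.09, edgeR adjusted p = 0.0813) over both treatments, and the import channel subunit Timm17a at -0.28 (SE 0.12, edgeR adjusted p = 0.378) in sudachitin livers. Mrpl1 was at -0.22 (SE 0.07, edgeR adjusted p = 0.121) over both treatments and Mrps27 at -0.47 (SE 0.16, edgeR adjusted p = 0.268) in control livers. Of the SIRT3 substrates, Glud1, glutamate dehydrogenase, was at -0.43 (SE 0.12, edgeR adjusted p = 0.0824) over both treatments, and Ppif, the cyclophilin of the permeability pore, at 0.57 (SE 0.16, edgeR adjusted p = 0.214) in control livers. All these differences of single genes are of ZT18 from ZT6 and did not pass. For sudachitin against control at ZT18, 21 of 78 ribosomal, 5 of 18 import and 1 of 9 SIRT3 substrate genes were above 0 (49.6% of all tested genes). Their medians were -0.07, -0.10 and -0.12. Without single livers these ran from -0.12 to -0.02, from -0.20 to 0.01 and from -0.28 to 0.04. Other lists went both ways, with 12 of 21 factors of mitochondrial DNA and 4 of 15 fusion, fission and mitophagy genes above 0.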

How the data were processed

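Liver RNA of 8 mice was sequenced as poly(A)-selected libraries without strand information, in 150-base pairs, from 2 µg of RNA with an integrity number above 9.0, per the labels' protocols. The submitters' processing notes name Trimmomatic 0.39, STAR 2.7.2a, HOMER (version not given in the sources used here), GRCm38 and mm10, without their roles. The authors deposited 1 table of estimated counts per transcript (reads over its exons, without normalization, in 0.5 steps), and 1 table of FPKM, which per the file headers rests on the library total in each header (counts in exons were 43.6% to 47.8% of it) and differed from that calculation by at most 4e-11. How reads with several positions were counted is not given in the sources used here.

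Titles gave each sample its group and replicate number. Expected counts, rounded to whole numbers with 0.5 up, went into edgeR 4.0.16 under R 4.3.3 (TMM factors, default filter on low counts by group, quasi-likelihood F test). All 8 libraries entered each fit: a group-means model served the interaction and the comparisons within 1 time or treatment, and additive terms for treatment and time those over both. P-values were adjusted over all 14506 genes kept by the filter, and 0.05 was the threshold. Each SE is the size of the log2 difference divided by the square root of F, and intervals use the test's degrees of freedom. The genes and lists were chosen with earlier results of these data known. Named were the 10 genes, up to 4 genes of each list that passed in a comparison or else the 2 with the smallest p, and for each of the 10 genes the 3 genes of at least 5 CPM with the highest Pearson r of log2 CPM (prior count 2) over the 8 libraries, leaving out predicted genes. Alternatives were DESeq2 1.42.0, edgeR with other scalings or filters, fits of only the groups compared, a block for replicate number, limma 3.58.1 on log2 FPKM with a pseudocount of 0.1 or 1, and leaving out each library. Exon overlaps came from GENCODE.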

Additional observations from a re-analysis of the deposited data

How the results depend on the processing

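None of the 10 genes passed in the 7 comparisons as fitted, and 10 alternative counts gave 1 or 2 passing genes. Without the filter on low counts Ucp2 passed for time in control livers (1 gene, adjusted p = 3e-10) and for the interaction (1 gene, 0.00263), Ppargc1b for time in sudachitin livers (1 gene, 0.0153), and Ppargc1b and Ucp2 for time over both treatments (2 genes, 0.00473 and 5.95e-07). DESeq2 called 1 gene for time in control livers (Ucp2) and 1 for time over both treatments (Ppargc1b), and limma on log2(FPKM + 1) called 1 for time over both treatments (Gabpa). Leaving out 1 library at a time, the counts ran from 0 to 1 for sudachitin at ZT18 (Ucp2), for time in control livers (Ucp2, 1.87, adjusted p = 0.00403) and for time over both treatments (Ppargc1b), each time 1 without control ZT18 replicate 2, and stayed at 0 in the other comparisons. The cause was not tested. Of 1230 values of the 10 genes under alternatives, 11 passed where the fit as described did not, 0 lost a call and 0 called values reversed, while 112 that were called neither way changed sign.

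Over all tested genes the number called depended much more on the setting: 0 to 67 for sudachitin at ZT6 (0 as fitted), 0 to 488 at ZT18 (2), 1 to 309 over both times (3), 4 to 881 for time in control livers (76), 1 to 861 in sudachitin livers (27), 91 to 1629 over both treatments (534) and 0 to 259 for the interaction (0). The highest was without the filter on low counts in each. Same-numbered mice of different groups correlated in their deviations from the group means with r from -0.20 to 0.28 over the 6 pairs of groups, highest between the ZT18 groups. With 2 mice per group these values cannot tell whether same-numbered mice shared their handling. With the replicate number as a block, 0 of the 10 genes were called in any comparison, and over all genes 43 were called for time in control livers, 18 in sudachitin livers, 461 over both treatments, 1 for sudachitin at ZT6, 0 at ZT18, 3 over both times and 0 for the interaction. Depth limits Ppargc1b and Nrf1 most, with at most 100.5 counts in any library, and 2 mice per group limit all 10 genes.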
